A study of Rattus norvegicus with 2 samples.

Results

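Molecular chaperones, the proteins that bind unfolded or partly folded polypeptides and help them fold, were described by class in rat (Rattus norvegicus) embryonic stem cells. The members were the genes of the deposited table whose symbols begin with the names of the HSP70, small heat shock protein, HSP90, HSP60, HSP10, HSP110, DNAJA, DNAJB, DNAJC and CCT families. Hspa5 was left out. This gave 80 of 23282 genes, chosen by name and not by level. RNA was measured in 2 libraries of the line DA-EC8/Rrrc, derived from the Dark Agouti strain, at passage 30 and with a karyotype labelled normal. The cells were untreated and grown in 2i medium, which holds inhibitors of the kinases MEK and GSK3. Both libraries are wild type and form 1 group of 1 cell line, so there is no contrast between conditions, and all values below are levels and their spread over 2 replicates.

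The values are RPKM (the reads of a gene, divided by its length in kilobases and by the library total in units of 1000000), which allows levels of different genes to be set side by side. Value steps in the table point to 2991184 reads in replicate 1 and 3050685 in replicate 2. Whether these count single reads, read pairs or a subset of the reads cannot be told from the table, and all read numbers here are in that unit. For a 2 kb gene model 3 reads then amount to 0.501 and 0.492 RPKM. This floor includes counting error alone. The series calls the libraries biological replicates, but nothing in the labels says that they came from separate cultures, so the spread may be partly technical. All 10 markers of pluripotent stem cells looked at averaged 1 RPKM or more, with Pou5f1 at 591 and 577 RPKM and Sox2 at 175 and 180.4 RPKM. Of 10 fibroblast or feeder cell markers 3 reached 1 RPKM, and their summed level was 6.25 RPKM in replicate 1 against 11.4 RPKM in replicate 2, and their part in the levels below was not tested. Those 3 were Col1a1 (3.39 and 6.02 RPKM), Col3a1 (1.32 and 3.16 RPKM) and Thy1 (1.01 and 1.73 RPKM). Col1a2, Acta2, Lum and S100a4 were listed at 0 in both replicates. Of 4 neural markers 2 reached 1 RPKM, Tubb3 at 32.4 and 32.2 RPKM and Map2 at 2.65 and 2.39 RPKM. Of 5 endoderm markers 1 reached 1 RPKM, and of 5 blood cell markers 0 did.

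Chaperones fall into classes that hand clients to each other. HSP70 proteins bind short hydrophobic stretches in cycles of ATP hydrolysis, J-domain proteins of the DNAJ families bring clients to HSP70 and trigger that hydrolysis, and HSP110 proteins exchange its nucleotide. HSP90 acts late, on nearly folded clients such as kinases and steroid receptors. Chaperonins enclose a client in a barrel: HSP60 with its lid HSP10 in mitochondria, and CCT (also called TRiC) in the cytosol, where it folds actin and tubulin. Small heat shock proteins hold unfolded proteins without using ATP. Many of these genes are targets of HSF1, the transcription factor of the heat shock response.

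Chaperone genes were mostly detected and many were abundant. Averaged over the replicates, 61 of 80 members (76.25%) were at 1 RPKM or more, against 46.4% of all genes listed. The level of 10 RPKM was met by 47 members (58.75%, against 29.4% of all genes) and that of 100 RPKM by 20 members (25%, against 4% of all genes, 932 of 23282). Another 12 members lay above 0 but under 1 RPKM, and 7 were listed at 0 in both replicates, a state shared by 38.2% of all genes. A value of 0 in the table is a listing and no proof of silence. The median member stood at 11.8 and 11.2 RPKM in replicates 1 and 2, against 0.556 and 0.516 RPKM for all genes, those at 0 included. Members make up 0.344% of the genes listed and took 1.78% and 1.77% of the RPKM summed over all genes.

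The classes, as set by symbol, differed widely in level. Trap1, the mitochondrial HSP90, has a symbol outside the rule and is not in the HSP90 class. An HSP90 median with Trap1 (153 and 156 RPKM) was not computed. HSP90 had the highest class median at 445 ± 0.854 RPKM (SD, n = 2), followed by CCT (315 ± 3.03 RPKM), HSP60 with HSP10 (218 ± 10.8 RPKM), DNAJA (132 ± 4.31 RPKM) and HSP110 (99.6 ± 2.41 RPKM). A wide gap separated these from DNAJC (14.1 ± 1.67 RPKM), DNAJB (9.65 ± 0.783 RPKM), HSP70 (5.98 ± 0.534 RPKM) and the small heat shock proteins (0.534 ± 0.256 RPKM). On the log2(RPKM + 1) scale HSP110 lay above DNAJC by 2.88 in replicate 1 and 2.60 in replicate 2, larger than the difference between any other neighbours in this order. DNAJC lay above DNAJB by 0.50 ± 0.05 and DNAJB above HSP70 by 0.79 ± 0.30. The order of these lower classes was less settled. Keeping only members at 0.1 RPKM or more moved the median of HSP70 to 9.15 RPKM and that of the small heat shock proteins to 1.20 RPKM, since Hspa1l, Hspb3 and Hspb7, listed at 0, drop out. With class means in place of medians DNAJB lay above HSP70 by 0.028, and without Hspa8, Hspa1b and a pseudogene entry, a choice made after the values were seen, by 0.0053, as the HSP70 median then stood at 9.61 RPKM. Of the RPKM summed over all members, CCT alone held 39.7% and 40.1%, and HSP90 held 24.2% and 24.3%.

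**Figure D1:**
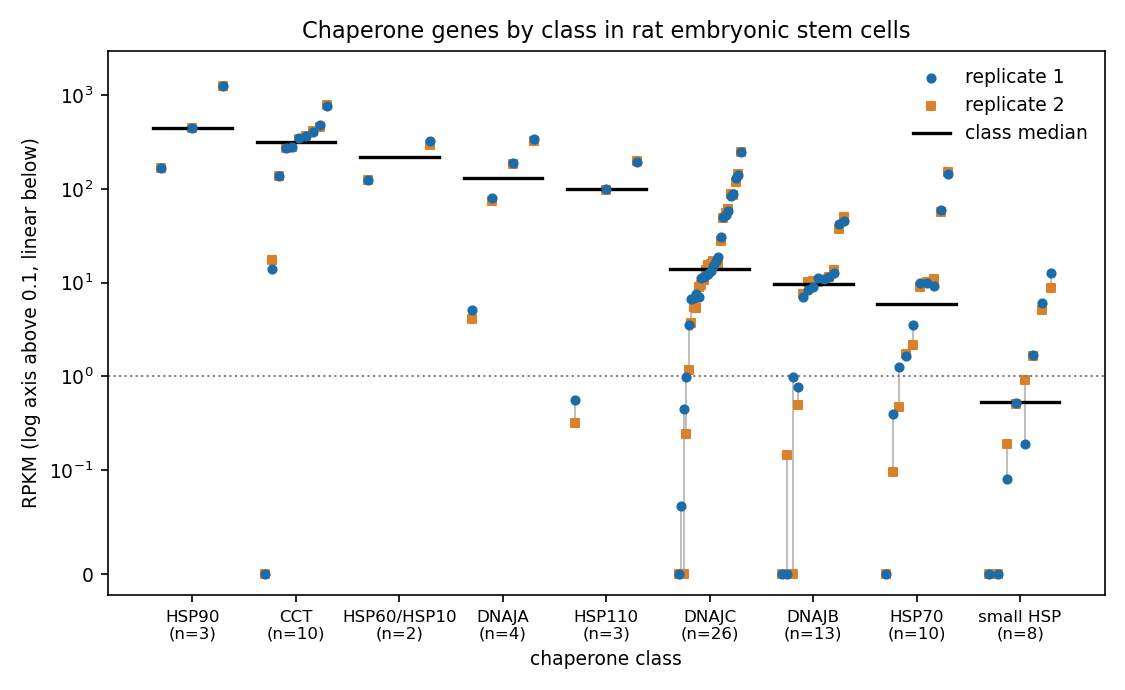
RPKM of each chaperone gene (vertical axis, log scale above 0.1 and linear below) by class, with circles for replicate 1, squares for replicate 2, a grey line joining a gene's 2 values and a black bar for the class median. The 3 HSP90 genes lie between 167 and 1269 RPKM. Of the 8 small heat shock protein genes 5 lie under the dotted line at 1 RPKM, a level that 46.4% of all genes reached.

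HSP90 was represented by the 3 genes that the rule took. Hsp90ab1, the constitutive cytosolic form (Entrez gene 301252, rn5 chromosome 9, 16706512 to 16711884), was at 1274 and 1264 RPKM, the highest member and rank 10 of all genes. Hsp90b1, the form of the endoplasmic reticulum also known as GRP94, was at 445 and 446 RPKM. Hsp90aa1, the cytosolic form that heat shock induces more strongly (chromosome 6, 144182009 to 144187540), was at 166 and 167 RPKM. The 3 genes did not overlap, and each differed between the replicates by less than 1.5-fold. Hsp90ab1 exceeded Hsp90aa1 by 7.68-fold in replicate 1 and 7.56-fold in replicate 2 (7.62 ± 0.0820, SD, n = 2), and Hsp90b1 exceeded Hsp90aa1 by 2.67-fold ± 0.00755.

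The CCT chaperonin stacks 2 rings, each with 1 copy of 8 different subunits, and all 8 subunit genes were above 100 RPKM. Cct5, the epsilon subunit (Entrez gene 294864, chromosome 2, 104340314 to 104351466), was highest at 779 and 791 RPKM. Tcp1, the alpha subunit after which the complex is named (chromosome 1, 51719055 to 51726734), was lowest at 138 and 139 RPKM. Between them lay the gamma subunit Cct3 (483 and 464 RPKM), the beta subunit Cct2 (408 and 415 RPKM), the delta subunit Cct4 (367 and 366 RPKM), the eta subunit Cct7 (352 and 346 RPKM), the zeta subunit Cct6a (283 and 281 RPKM) and the theta subunit Cct8 (277 and 275 RPKM). This order was the same in both libraries, and each neighbouring pair differed by more than the SD of that difference over the 2 replicates. The closest pair, Cct6a and Cct8, differed by 5.69 ± 0.213 RPKM. Read numbers were not recovered for these genes, so this small gap was not set against counting error. The highest subunit exceeded the lowest by 5.67-fold ± 0.0399, and the coefficient of variation over the 8 subunits was 49.0% in replicate 1 and 49.9% in replicate 2, so transcript levels were unequal although the ring holds equal numbers of each subunit.

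Paralogs outside the ring were far lower. Cct6b, the paralog of Cct6a known from testis, was at 13.9 and 17.6 RPKM, on at least 74 and 95 reads. Cct6a exceeded it by 20.3-fold in replicate 1 and 16.0-fold in replicate 2. Cct8l1, an entry related to Cct8 that RefSeq now names Cct8l2, was listed at 0 in both.

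**Figure D2:**
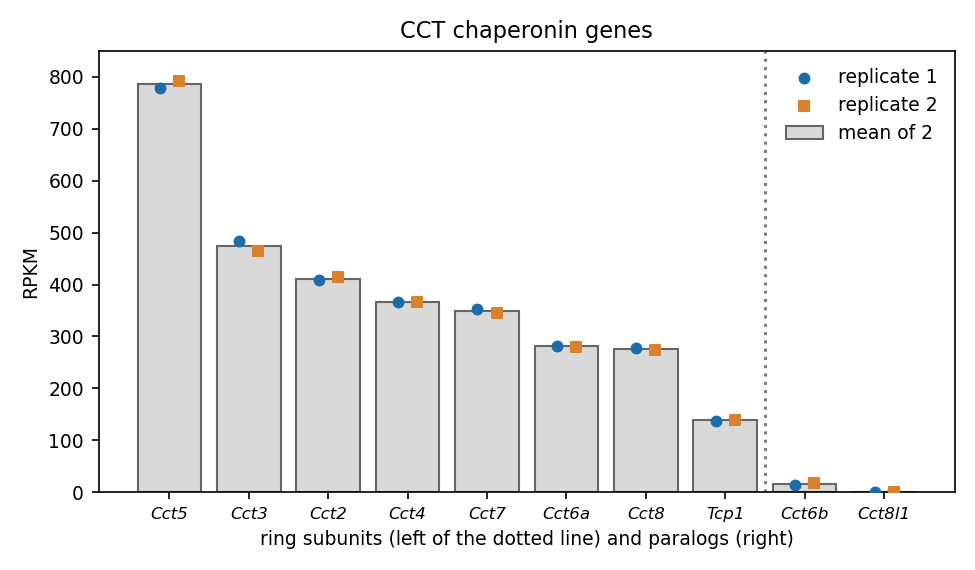
RPKM of the CCT genes (vertical axis, from 0), with grey bars for the mean of 2 replicates, circles for replicate 1 and squares for replicate 2. Cct5 stands at 785 RPKM and Tcp1 at 138 RPKM, and the replicates of each ring subunit lie much closer together than most subunits do.

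The mitochondrial chaperonin pair lie back to back. Hspd1, which encodes HSP60 (Entrez gene 63868, chromosome 9, 61361746 to 61372172, minus strand), and Hspe1, which encodes its lid HSP10 (Entrez gene 25462, chromosome 9, 61372462 to 61375656, plus strand), are divided by 289 bp on rn5. Hspd1 was at 125 and 124 RPKM, and Hspe1 at 325 and 296 RPKM. Hspe1 was higher in each library, by 2.60-fold and 2.38-fold (2.49 ± 0.152, SD, n = 2). A further entry that the rule took, Hspd1-ps25, is named a pseudogene and was listed at 0 in both.

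HSF1 binds heat shock elements, inverted repeats of GAA, and such repeats were looked for in promoters. RefSeq sequences of the GRCr8 build, from 250 bases before to 50 bases after a gene's start, were available for 64 of the members. A 3-unit element, in which GAA and TTC alternate with any 2 bases between neighbouring units, was searched on both strands. It stood in 6 of these 64 windows (9.38%), against 0.794% of 27457 genes. The 6 genes were Hspd1, Hspe1, Hspa8, Hsph1, Dnaja1 and Cct4. The shorter 2-unit repeats GAANNTTC or TTCNNGAA, which each longer element also contains, stood in 20 of 64 members (31.25%) and in 16.7% of all genes. The windows of Hspd1, Hspa8, Hsph1, Dnaja1 and Cct4 are printed to show where the long elements lie, 5′ to 3′ along the gene, with every match of either motif in capitals. The windows of Hspd1 and Hspe1 share 211 bases, so their matches are the same and only Hspd1 is shown.
Hspd1 (chr9:64083988-64084287, minus strand): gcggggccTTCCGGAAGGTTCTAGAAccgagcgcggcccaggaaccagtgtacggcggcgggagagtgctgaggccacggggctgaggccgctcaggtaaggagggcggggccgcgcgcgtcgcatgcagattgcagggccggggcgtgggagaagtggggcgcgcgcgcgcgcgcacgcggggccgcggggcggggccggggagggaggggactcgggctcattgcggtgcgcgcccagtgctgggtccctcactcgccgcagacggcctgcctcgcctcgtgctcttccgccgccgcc
Hspa8 (chr8:50080264-50080563, plus strand): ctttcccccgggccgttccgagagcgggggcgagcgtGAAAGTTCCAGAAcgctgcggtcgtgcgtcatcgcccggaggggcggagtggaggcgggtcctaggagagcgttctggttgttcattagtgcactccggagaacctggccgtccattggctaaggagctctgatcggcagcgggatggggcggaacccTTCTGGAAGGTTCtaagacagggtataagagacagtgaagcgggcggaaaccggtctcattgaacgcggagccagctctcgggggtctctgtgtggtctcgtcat
Hsph1 (chr12:10427118-10427417, plus strand): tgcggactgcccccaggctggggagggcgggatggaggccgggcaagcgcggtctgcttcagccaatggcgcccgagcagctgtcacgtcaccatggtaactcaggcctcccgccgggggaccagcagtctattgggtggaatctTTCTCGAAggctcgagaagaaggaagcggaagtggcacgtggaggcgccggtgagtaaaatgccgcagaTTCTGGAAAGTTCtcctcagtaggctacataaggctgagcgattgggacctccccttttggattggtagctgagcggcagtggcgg
Dnaja1 (chr5:60638154-60638453, plus strand): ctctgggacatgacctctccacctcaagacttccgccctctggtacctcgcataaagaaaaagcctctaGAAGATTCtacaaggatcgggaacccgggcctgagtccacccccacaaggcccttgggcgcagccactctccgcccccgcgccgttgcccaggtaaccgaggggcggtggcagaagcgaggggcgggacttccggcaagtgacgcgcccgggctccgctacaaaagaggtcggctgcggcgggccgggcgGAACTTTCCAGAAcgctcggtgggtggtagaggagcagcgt
Cct4 (chr14:101192807-101193106, plus strand): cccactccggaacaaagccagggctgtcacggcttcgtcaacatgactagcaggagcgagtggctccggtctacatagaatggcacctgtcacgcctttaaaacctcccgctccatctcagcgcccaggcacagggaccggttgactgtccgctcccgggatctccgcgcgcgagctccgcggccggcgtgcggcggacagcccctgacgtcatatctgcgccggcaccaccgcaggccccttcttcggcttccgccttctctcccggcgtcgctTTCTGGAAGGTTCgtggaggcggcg
In Hspd1 overlapping repeats form an unbroken run near the distal end, and Hspa8 holds a pair of separate elements. In Dnaja1 and Cct4 the long element lies within the 50 bases after the start site, not before it. Of the 6 genes 5 averaged 10 RPKM or more, with Hspa8 as the exception, against 35 of 58 without a match. Their median was 218 RPKM, and that of the 58 others 11.0 RPKM. All of the 6 except Hspa8 belong to classes with high medians, and Hspd1 and Hspe1 share their element. This gap therefore cannot be told apart from class. The 2-unit repeats showed no such gap, with medians of 13.6 RPKM in the 20 genes with a match and 12.2 RPKM in the 44 without, and 14 of 20 against 26 of 44 at 10 RPKM or more. A match describes letters, not binding, and the untreated design does not address induction.

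Of the HSP70 class, which here leaves out Hspa5, only the mitochondrial and ribosome-associated forms were listed at high levels. The low listed value of Hspa8, given below, is uncertain. Hspa9, the mitochondrial HSP70 known as mortalin (chromosome 18, 27441856 to 27459272), was at 144 and 152 RPKM. Hspa14, which works with the J-protein Dnajc2 at the ribosome, was at 59.5 and 56.8 RPKM. Hspa2, the form required in spermatogenesis, was at 9.22 and 11.0 RPKM on 69 and 84 reads, and Hspa13, an HSP70 of microsomes, at 9.97 and 10.2 RPKM. Hspa1a, the classic heat-inducible HSP70, was at 10.005 and 9.07 RPKM. This value is the sum of 2 rows on chromosome 20 of rn5. All of it came from the row at 7029038 to 7033025, and the row at 4802576 to 4804849 was listed at 0 in both replicates. The levels of Hspa2, Hspa13 and Hspa1a overlapped, so these genes could not be ordered. The distant relatives Hspa12a (1.27 and 0.466 RPKM) and Hspa12b (0.399 and 0.0978 RPKM) were low in both, and Hspa1l, a testis form, was listed at 0. Its locus overlaps the Hspa1a row at 7029038 to 7033025 by 469 bp on the opposite strand. Whether counting used strand is not given in the sources used here.

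Hspa8 encodes HSC70, the constitutive HSP70 of the cytosol, which is textbook abundant in growing cells. It was listed at only 3.50 and 2.14 RPKM, so Hspa9 stood above it by 41.1-fold and 70.9-fold. The value is the sum of 2 rows on chromosome 8 of rn5, from 43478238 to 43480456 (0.921 and 1.13 RPKM) and from 46005304 to 46006864 (2.58 and 1.01 RPKM). As few as 4 and 5 reads for the first locus, and 5 and 2 for the second, would give these values. RefSeq names 33 pseudogenes of Hspa8, more than for any other member, and a separate entry described as similar to the HSC70 protein (LOC680121) was at 4.28 and 4.97 RPKM. The part of these copies in the low value was not tested. Among members with at least 10 named pseudogenes, Hsp90ab1 had 23, Hspd1 20, Hsp90aa1 16 and Cct6a 14, with their levels given above. The number of names does not tell whether copies took reads, for these genes or for Hspa8. Hspa1b, the near-identical neighbour of Hspa1a, was at 1.64 and 1.72 RPKM. Its identifier had no match in RefSeq, and the model length found for it, 5918 bp, is that of its whole locus. Whether reads of such copies were split in counting was not tested. Summed over Hspa8, Hspa1a, Hspa1b, Hspa1l and Hspa2, the cytosolic HSP70 level was 24.4 and 23.9 RPKM, a total that holds the uncertain value of Hspa8.

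HSP110 proteins, exchange factors for HSP70 that also hold clients, were represented by 3 genes. Hspa4 (APG-2) was at 195 and 198 RPKM, and Hsph1 (HSP105) at 101 and 97.9 RPKM. Hspa4 exceeded Hsph1 by 1.97-fold ± 0.0752. The third, Hspa4l, was at 0.563 and 0.316 RPKM, on at least 7 and 4 reads.

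J-domain proteins of the A type, which resemble bacterial DnaJ most closely, had the highest class median among the J-protein families, although the 26 DNAJC genes together held more of the summed RPKM of all members (13.2% in both libraries, against 7.90% and 7.67% for DNAJA). Dnaja1, a cytosolic partner of HSC70 (chromosome 5, 61562288 to 61573199), was at 341 and 330 RPKM, and its relative Dnaja2 at 190.5 and 184 RPKM. The mitochondrial Dnaja3, a partner of mortalin, was at 79.9 and 74.3 RPKM. Dnaja4 was at 5.12 and 4.13 RPKM. The 4 genes did not overlap, and Dnaja1 exceeded Dnaja2 by 1.79-fold in each library.

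B-type J-proteins were lower, and none reached a mean of 100 RPKM. Dnajb1 (HSP40), the heat-inducible partner of HSP70, was highest at 46.1 and 50.7 RPKM. Dnajb11 (ERdj3), of the endoplasmic reticulum, followed at 42.4 and 37.2 RPKM. Both lay well above the rest. Dnajb14, a J-protein of the endoplasmic reticulum membrane, was at 12.7 and 13.8 RPKM, Dnajb5 at 11.5 and 11.4 RPKM and Dnajb2, known for its part in neurons, at 11.0 and 10.8 RPKM. The 4 other members above 1 RPKM lay between 7.34 and 10.7 RPKM on average. Dnajb3 was at 0.989 and 0 RPKM and Dnajb13 at 0 and 0.145 RPKM, and Dnajb8, a testis J-protein, was listed at 0. With so few reads the order of these last genes cannot be read.

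C-type J-proteins, which share only the J-domain and have varied tasks, were the largest class. Dnajc8, found in spliceosomes, was highest at 249 and 250.2 RPKM. Dnajc2 (zuotin, or MPP11), the ribosome-bound partner of Hspa14, was at 141 and 144 RPKM, above Hspa14 in both libraries. Dnajc7, which binds both HSP70 and HSP90 through TPR repeats, was at 132 and 119 RPKM. The mitochondrial Dnajc11 was at 89.1 and 86.6 RPKM, and the histone co-chaperone Dnajc9 at 84.1 and 88.1 RPKM. Dnajc11 and Dnajc9 overlapped in level. The 17 other members at 1 RPKM or more had means between 2.36 and 60.0 RPKM. The auxilin gene Dnajc6, whose product uncoats clathrin vesicles in neurons, was at 0.0658 and 0 RPKM, Dnajc5g at 0.446 and 0 RPKM, and Dnajc5b was listed at 0. Both are relatives of Dnajc5, which encodes the cysteine string protein of vesicles and was at 50.8 and 48.8 RPKM.

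Small heat shock proteins were the lowest class, with 3 of 8 genes (37.5%) averaging 1 RPKM or more, against 46.4% of all genes. Their median of 0.534 RPKM was close to that of all genes, 0.536 RPKM, so the class was low only beside other chaperones. Hspb6 (HSP20), known from muscle, was highest at 12.6 and 8.76 RPKM. Hspb11, which RefSeq now names Ift25 after its role in cilia, was at 6.12 and 5.08 RPKM. Hspb1 (HSP27 or HSP25), the widely expressed and heat-inducible member, was at 1.69 and 1.66 RPKM. As few as 2 reads in each library would give this value. Hspb8 was at 0.188 and 0.924 RPKM, Hspb9 at 0.518 and 0.507 RPKM on 1 read in each at the least, and Hspb2 at 0.0913 and 0.191 RPKM. Hspb3 and Hspb7, of muscle and heart, were listed at 0, as were the alpha-crystallin genes Cryaa and Cryab, which belong to the same family under other names.

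A compartment was assigned to 48 of the 80 members. The 32 left without one, among them all 8 small heat shock protein genes and 16 of 26 DNAJC genes, had a median of 0.923 RPKM, and 15 of them reached 1 RPKM, so the assigned genes are a more abundant subset. Members assigned to the cytosol and nucleus from textbook knowledge had a median of 99.6 ± 2.41 RPKM (33 genes) and those of mitochondria 87.9 ± 1.76 RPKM (7 genes). Members of the endoplasmic reticulum were lower at 15.2 ± 0.744 RPKM (8 genes), although every gene of that group reached 1 RPKM. These medians depend on which genes were assigned. The cytosolic group holds the CCT ring subunits. That of the endoplasmic reticulum lacks Hspa5, left out here, and Calr and Canx, which are counted among the partner genes. Among members of the endoplasmic reticulum, Hsp90b1 stood far above the J-proteins Dnajc10 (52.8 and 55.1 RPKM), a disulfide reductase, Dnajc3 (18.8 and 15.6 RPKM), known as P58IPK, and Dnajb9 (8.33 and 10.2 RPKM), or ERdj4. In mitochondria the range ran from Hspe1 down to Dnajc30, at 6.89 and 5.53 RPKM on 22 and 18 reads.

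Function terms deposited with the table, which the choice of members did not use, divided the members by level to different degrees. The 27 members annotated with ATP binding had a median of 148 RPKM, and the 53 without it 10.3 RPKM. ATP binding marks all HSP90 and HSP110 genes, most HSP70 and CCT genes and few J-protein genes, so this division follows the classes. The 10 members annotated with a response to heat had a median of 67.1 RPKM, against 11.3 RPKM for the 70 others. By counts the order was the opposite, since 5 of these 10 reached 10 RPKM, against 42 of the 70 others. Gaps were narrow for protein folding (a median of 14.3 RPKM in 48 members with the term, against 8.44 RPKM in 32 without) and for unfolded protein binding (14.5 RPKM in 47 members, against 7.34 RPKM in 33). For heat shock protein binding the medians nearly met: the 39 members with it had a median of 11.4 RPKM and the 41 without it 10.7 RPKM.

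Co-chaperones and clients, from lists of related genes, were detected nearly throughout. Of 80 partner genes with a row 75 reached a mean of 1 RPKM and 70 reached 10 RPKM (87.5%, against the 29.4% of all genes). All 16 HSP90 co-chaperones were above 10 RPKM, with a list median of 66.7 ± 0.516 RPKM. The p23 gene Ptges3 led them at 540.4 and 525 RPKM. It was followed by the immunophilin Fkbp4 at 483 and 455 RPKM and by Stip1, or HOP, which joins HSP70 to HSP90, at 452 and 458 RPKM. The lowest was Nudc at 14.4 and 15.9 RPKM. These 3 leading co-chaperones were above Hsp90aa1 and below Hsp90ab1 in both libraries.

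HSP70 exchange factors and co-chaperones were all detected, 14 of 14, with a median of 53.0 ± 1.89 RPKM. Bag1 (183 and 164 RPKM), Bag6 (124 and 121 RPKM) and Sgta (111 and 104 RPKM) were highest. Sil1, an exchange factor for the HSP70 of the endoplasmic reticulum, was lowest of the list at 7.80 and 9.26 RPKM. Of 4 measured heat shock factor genes and regulators 3 reached 10 RPKM: Hsbp1, an HSF1-binding protein gene, at 81.6 and 75.3 RPKM, Hsf1 at 44.9 and 39.6 RPKM and Hsf2 at 40.5 and 38.2 RPKM. Hsf4, the factor of the lens, was listed at 0.

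Genes around CCT varied more. Prefoldin carries nascent actin and tubulin to CCT. Of 8 measured prefoldin and CCT cofactor genes 7 reached 1 RPKM, led by Pfdn5 (126 and 120.3 RPKM), Pfdn2 (116 and 101 RPKM) and Pfdn1 (48.6 and 45.3 RPKM), with Pdcl2 lowest at 0.666 and 1.31 RPKM. All 3 leading genes were below each CCT ring subunit. Among tubulin folding cofactors Tbca was at 117 and 128 RPKM, Tbce at 49.4 and 45.5 RPKM and Tbcc at 35.1 and 35.0 RPKM, while Tbcb was at 0.308 and 0 RPKM. All 13 client genes of actin and tubulin were detected. Tubb5 was at 963 and 957 RPKM, Actb at 715 and 725 RPKM and Tubb4b at 308 and 316 RPKM, against 1.46 and 1.23 RPKM for Tuba1c, a near-identical relative of other alpha-tubulin genes.

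Mitochondrial partners were uniformly present, with all 10 at 10 RPKM or more and a median of 66.9 ± 2.17 RPKM. The protease gene Lonp1 was at 264 and 269 RPKM, Trap1, the mitochondrial HSP90, at 153 and 156 RPKM and the import receptor gene Tomm20 at 130.3 and 131 RPKM, with Tomm70a lowest at 14.2 and 15.2 RPKM. Trap1 was close to Hspa9 in level. Of 11 chaperones with names outside the rule 9 reached 1 RPKM. The lectin chaperones of the endoplasmic reticulum, Calr (237 and 241 RPKM) and Canx (199 and 201 RPKM), and Naca of the nascent chain complex (151 and 145 RPKM) were highest.

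**Figure D3:**
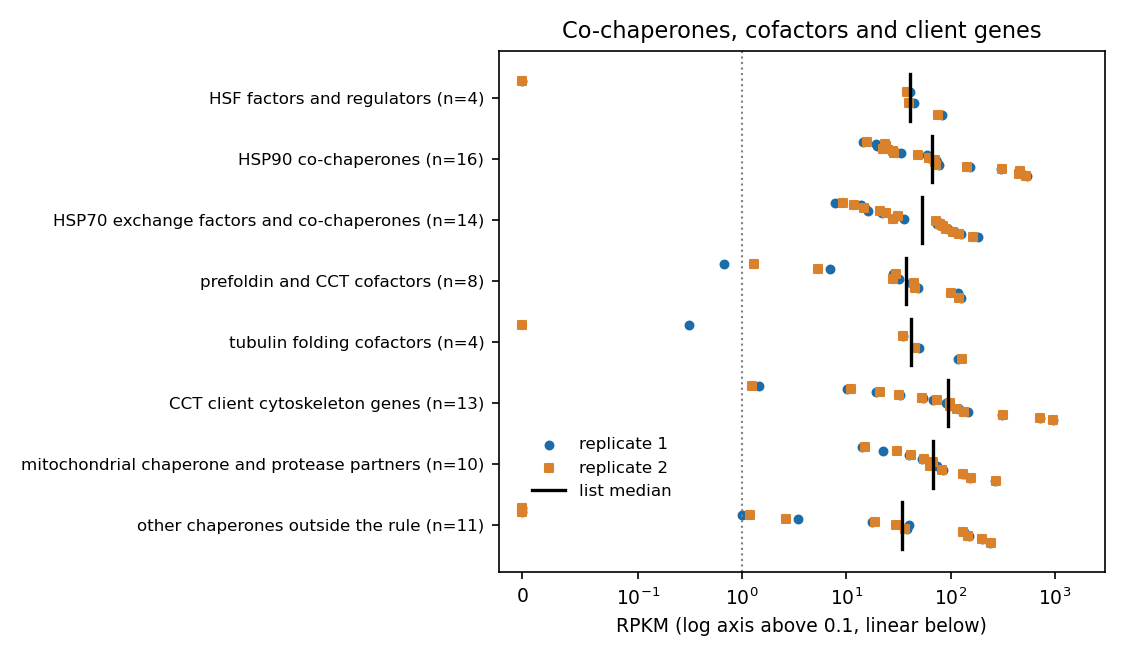
RPKM of partner genes (horizontal axis, log scale above 0.1 and linear below) in 8 lists, with circles for replicate 1, squares for replicate 2 and a black bar for the list median. The HSP90 co-chaperones run from 15.1 to 533 RPKM, and 5 of the 80 genes lie under the dotted line at 1 RPKM.

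Chaperone levels differed little between the replicates. Of the 61 members averaging 1 RPKM or more, 2 (3.28%) differed by more than 1.5-fold in RPKM + 1, against 4.26% of 10814 genes, so the members were not set apart. Both were higher in replicate 1, as were 2.77% of all genes, against 1.49% higher in replicate 2. Dnajc28, a J-protein gene of little-known function, was at 3.55 and 1.16 RPKM, on at least 15 and 5 reads. Dnajc12, which assists aromatic amino acid hydroxylases, was at 6.67 and 3.70 RPKM, on at least 23 and 13 reads. Few reads lie behind both differences.

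The spread narrowed as levels rose. The log2 ratio had an SD of 0.39 over the 14 members between 1 and 10 RPKM, against 0.38 for all genes of that range. It was 0.18 for the 27 members between 10 and 100 RPKM, where that of all genes was also 0.18, and 0.05 for the 20 members above, against 0.09. The farthest from 0 of those 20 were Dnajc7 and Hspe1, both at -0.14 on the log2 scale. The median log2 ratio of members was -0.01, and that of all genes -0.02.

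**Figure D4:**
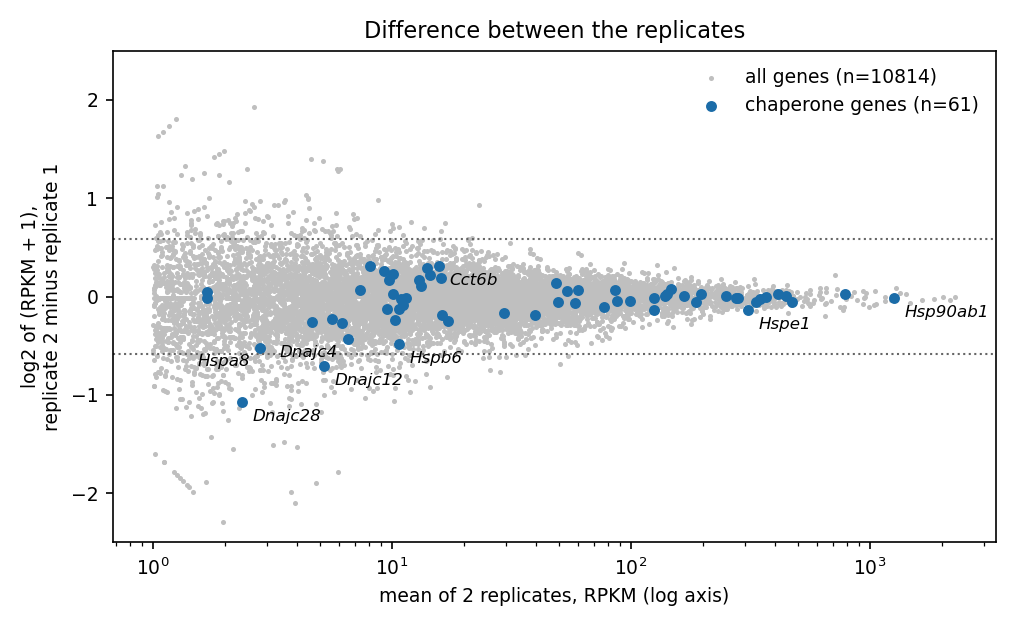
Difference between replicates on the log2(RPKM + 1) scale (vertical axis, replicate 2 minus replicate 1) against the mean RPKM (horizontal axis, log scale), for 10814 genes in grey and 61 chaperone genes in blue, with dotted lines at 1.5-fold. Dnajc28 and Dnajc12 lie beyond the lower line, and the members above 100 RPKM lie near 0.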

How the data were processed

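A rat embryonic stem cell line was measured in 2 wild-type libraries. Total RNA was made into libraries with the TruSeq kit and read as 50-base pairs, per the labels. The authors deposited 1 table of RPKM values on the rn5 build, matched to the samples by title. CASAVA 1.8 and TopHat 1.4.0 are named in the submitters' processing notes. How reads were counted, including those with several matches in the genome, is not given in the sources used here.

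The table held 23716 rows for 23282 Entrez identifiers, and rows of the same identifier were summed. Members, classes and lists were chosen with earlier results of these data known. With 1 group of 2 samples no test was made. Levels are both values or mean ± SD, and differences use log2(RPKM + 1), which understates those of low genes. At least 1 RPKM counted as detected. Read totals are those most often returned when loci under 6000 bp were taken as gene models holding 1 to 20 reads (344 of 2700 rows in replicate 1, 346 of 2688 in replicate 2). Reads per gene come from the shortest model length that gives whole reads for each library (relative tolerance 3e-07), found for 57 of 71 members with 1 row. They can be too few by a common factor, hence "at least". A 2 kb model at 10 RPKM holds 59.8 reads in replicate 1. The steps were tested on simulated libraries.

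The genes named are every HSP90, HSP110, HSP60, HSP10 and CCT gene, the 5 highest, the 2 lowest above 0 and all at 0 of the other classes, members past 1.5-fold between replicates, and the 3 highest and the lowest of each partner list. Hspa8, Hspa1b, Dnajc3, Dnajc5, Dnajc10, Dnajc30, Dnajb9, LOC680121, Cryaa and Cryab are named beyond this rule, with their values seen. Alternatives were other detection minimums and pseudocounts, a minimum level for members, class means, each replicate alone, rescaled libraries, a median-centred replicate 2 and the highest row per gene. RefSeq names and promoters are of GRCr8, and 79 of 80 members matched by identifier. No protein sequences were analysed here. The software was pandas 2.3.3, numpy 2.4.6 and matplotlib 3.10.9 under Python 3.11.15.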

Additional observations from a re-analysis of the deposited data

How the results depend on the processing

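No paired analysis was possible because both libraries belong to 1 group. Of 188 values recomputed, 149 stayed within the spread between the replicates (or within 1.5 times for counts) and 39 moved. Only class differences could be called changed in direction, and 0 were. The median log2 ratio of members was not judged for direction. It went from -0.0122 to 0.0047 with replicate 2 median-centred. With each replicate alone all 30 values stayed. Except for counts that outcome was fixed beforehand, since 1 of 2 values always lies within their SD of the mean. With a pseudocount of 0.1 HSP90 lay above HSP70 by 6.44 (log2) and HSP70 above the small heat shock proteins by 3.15. Keeping only members at 0.1 RPKM or more gave a median member of 14.4 RPKM, a cytosolic median of 113 RPKM, and differences of 5.46 for HSP90 over HSP70, 0.44 for DNAJC over DNAJB and 0.20 for DNAJB over HSP70. Class means gave 3.22 for CCT over DNAJC, 1.12 for DNAJC over DNAJB and 0.028 for DNAJB over HSP70. The members past 1.5-fold between replicates numbered 0 from 10 RPKM up and 6 with no minimum. Rescaling each library to a sum of 1000000 gave 7 such members, a median member of 26.3, compartment medians of 228 (cytosol and nucleus), 34.8 (endoplasmic reticulum) and 201 (mitochondrion), and 2.56 for HSP70 over small heat shock proteins. This rescaling multiplies all values of a library by 2.28 or 2.30, so the pseudocount and minimums weigh less. With the highest row per gene Hspa9 stood 103-fold above Hspa8, and members took 1.78% of the summed RPKM. Without Hspa8, Hspa1b and Hspd1-ps25, an alternative chosen after the data were seen, the median member was at 13.2 RPKM, the cytosolic median was 126 RPKM, and the differences were 5.40 for HSP90 over HSP70, 0.0053 for DNAJB over HSP70 and 2.81 for HSP70 over small heat shock proteins. Where no construction is named, the cause was not tested. Counting error limits members under about 1 RPKM most, where few reads lie behind each value. It also weighs on some above 1 RPKM, such as Hspb1 (at least 2 reads in each library) and Dnajc28 (at least 15 and 5 reads).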
